A study of Mus musculus with 9 samples.

Results

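Cytosolic ribosomal protein genes encode the protein components of the 60S (Rpl, large) and 40S (Rps, small) ribosomal subunits. They were taken by gene symbol as every Rpl or Rps gene in the deposited expression table, together with Rpsa, Rplp0, Rplp1 and Rplp2, while pseudogene symbols ending in -ps and the S6 kinases were left out. This gave 88 genes of 35321 in the table, 53 of the large and 35 of the small subunit. Of these, 77 were canonical subunit genes and 11 were paralogues or retrocopies (Rpl3l, Rpl6l, Rpl7l1, Rpl22l1, Rpl32l, Rpl36al, Rpl39l, Rps3a2, Rps3a3, Rps4l and Rps27l). All 88 passed the filter on low values, at least 1 FPKM (read counts scaled for gene length and depth) in at least 3 of the 9 samples.

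Ribosomal proteins are needed in equal numbers, one of most proteins per ribosome, and their mRNAs are among the most abundant of growing cells. Many of these mRNAs begin with a run of pyrimidines, the 5′ terminal oligopyrimidine (TOP) tract, through which mTORC1 and LARP1 control their translation and stability. Digoxin, a cardiac glycoside, inhibits the Na+/K+-ATPase, whose rodent alpha-1 form binds it weakly, and cardiac glycosides are known to reduce protein synthesis in human cells.

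The RNA came from subcutaneous Lewis lung carcinoma (LLC) tumours, a mouse lung carcinoma line grown in its own strain. Male C57BL/6 mice, 4 to 5 weeks old, had received LLC cells in the right flank, and injections into the peritoneum started on day 5. The groups were vehicle (PBS), 0.1 mg/kg digoxin and 1 mg/kg digoxin, with 3 samples in each. All groups carried the same tumour line, poly(A) RNA was sequenced as 150 bp read pairs, and each sample was bulk tumour RNA, in which fewer cells of a type and less RNA per cell cannot be told apart. Whether each sample was a separate mouse is not stated, and p-values therefore reflect a spread between samples that may be technical.

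Depth recovered from the spacing of the FPKM values was 48649867 to 51810956 reads with vehicle, 42870997 to 43319883 reads at 0.1 mg/kg and 40517062 to 42252370 reads at 1 mg/kg. On the first principal component of all tested genes, which held 69.4% of the variance, 4 of the 6 digoxin samples lay between 35.7 and 37.9 and the vehicle samples between -55 and -47.6. Sample 2 at 0.1 mg/kg (-0.604) and sample 1 at 1 mg/kg (9.12) lay between these clusters. They are called the intermediate samples here, and counts are also given without both.

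Sequences around the transcription start are shown for Rps6, Rplp2 and pairs of a paralogue and its main gene. Those of other clear calls, such as Rpl7l1 and Rpl5, are not shown. The sequences are given because the pyrimidine run at the start defines this class of mRNA. They are RefSeq starts of build GRCm38.p6, from 15 bases before to 15 bases after the start, 5′ to 3′, and capitals mark runs of at least 5 C or T. The windows are Rps6 at chr4:86857353-86857382 (minus strand), Rplp2 at chr7:141447636-141447665 (plus), Rps27 at chr3:90213634-90213663 (minus), Rps27l at chr9:66946071-66946100 (plus), Rpl39 at chrX:37085208-37085237 (minus), Rpl39l at chr16:10170213-10170242 (plus), Rpl22 at chr4:152324421-152324450 (plus) and Rpl22l1 at chr3:28805493-28805522 (plus).
Rps6: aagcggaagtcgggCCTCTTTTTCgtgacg
Rplp2: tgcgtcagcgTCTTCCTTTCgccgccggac
Rps27: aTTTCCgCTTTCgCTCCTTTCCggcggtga
Rps27l: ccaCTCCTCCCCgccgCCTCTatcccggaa
Rpl39: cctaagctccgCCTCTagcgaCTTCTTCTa
Rpl39l: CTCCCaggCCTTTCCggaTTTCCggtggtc
Rpl22: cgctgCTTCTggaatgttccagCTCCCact
Rpl22l1: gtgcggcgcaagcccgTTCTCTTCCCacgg

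A start was found for 65 of the 88 members, and where a gene had several the most upstream was read. A run of at least 7 C or T lay in this window of 30 bases in 32 of the 65 members (49.2%) and in 4978 of the 27025 genes in the RefSeq table (18.4%). Such a run could lie anywhere in the window, also before the start, as the longest one of Rps27l does. The share is therefore not that of members with a TOP tract. The letters CTTTC on either strand, which can lie inside such a run, were present in 27.7% of members and 7.37% of all genes. CCGGAAG, the core bound by ETS factors, was searched on either strand over 300 bases, from 250 before to 50 after the start, and was present in 38.5% of members and 9.14% of all genes. Rps6 and Rplp2, which moved in opposite directions in digoxin samples, both held a run of 10 pyrimidines, and the longest run was 10 in Rpl22l1 and 5 in Rpl22.

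Members made up a large part of the tumour transcriptome. Their mean level over the 9 samples ran from 1.01 to 2790 FPKM with a median of 327 FPKM, and 72 of the 88 averaged more than 100 FPKM. The highest were Rplp1, Rplp0, Rps3a1, Rps15, Rps2 and Rpl8. Rplp1, an acidic protein of the P stalk that recruits elongation factors, averaged 2710 ± 376 FPKM with vehicle, 2980 ± 176 FPKM at 0.1 mg/kg and 2690 ± 120 FPKM at 1 mg/kg (SD, n = 3 each). At the other end lay Rpl3l, Rpl39l and Rpl24. The gene lengths behind the FPKM values were 1.22 (Rpl36) to 16.1 (Rps15a) times the coding length, with a median of 4.1 over the 83 members with a coding transcript in GENCODE, so an FPKM compares samples for a gene and only loosely compares genes. Rpl41, whose coding length of 75 nucleotides is the shortest, shows this, since it averaged 966 ± 105 FPKM with vehicle and its gene length was 15.6 times its coding length.

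**Figure D1:**
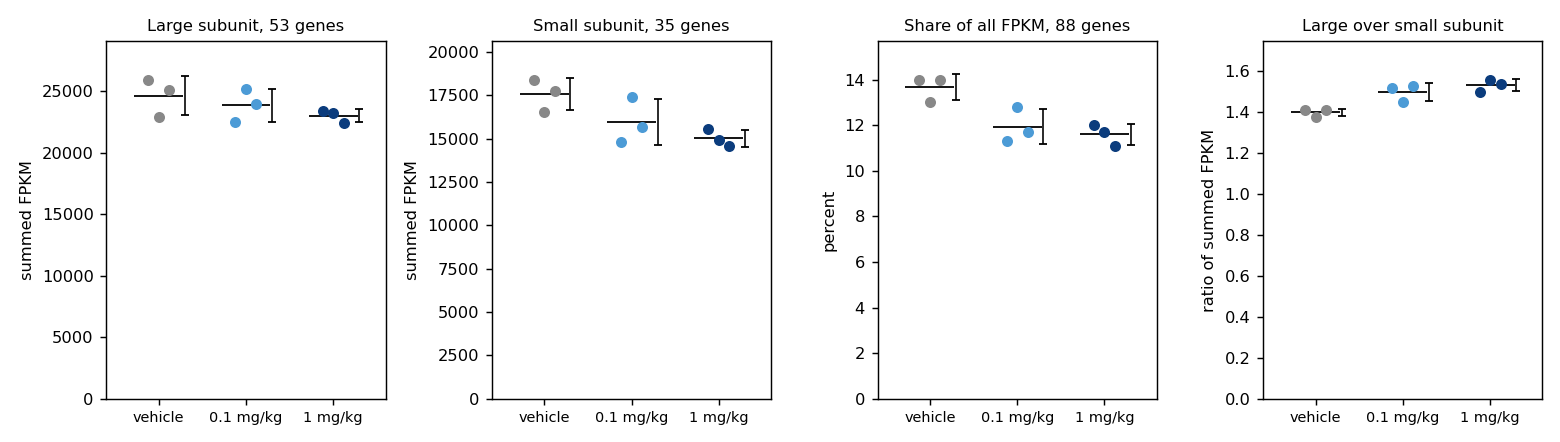
Summed FPKM of the large and small subunit genes, the share of all FPKM held by the 88 genes, and the ratio of both sums, for each of the 9 samples. Points are samples, horizontal lines are means and error bars are SD (n = 3 per group). The ratio was 1.45 or above in every digoxin sample and lay between 1.38 and 1.41 in vehicle samples.

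The summed FPKM of small subunit genes was lower on average in digoxin samples, and that of large subunit genes changed less. All 88 genes together held 14, 13 and 14% of the summed FPKM in the vehicle samples, 11.3, 12.8 and 11.7% in the 0.1 mg/kg samples and 12.0, 11.7 and 11.1% in the 1 mg/kg samples. By this share every digoxin sample lay below every vehicle sample, and the intermediate sample at 0.1 mg/kg was the nearest. With pseudogenes added, that sample held 14.6%, beside 14.7% in the lowest vehicle sample. The members' share of recovered reads overlapped between vehicle and the lower dose. It was 7.58, 6.84 and 7.36% with vehicle and 6.31, 7.16 and 6.68% in the lower dose group. The higher dose group had 6.57, 6.42 and 6.23%, without overlap with vehicle. The small subunit sum was 18391, 16534 and 17759 FPKM with vehicle, 14783, 17405 and 15637 FPKM at 0.1 mg/kg and 15558, 14919 and 14560 FPKM at 1 mg/kg. It overlapped the vehicle values at 0.1 mg/kg and not at 1 mg/kg. Large subunit genes summed to 24619 ± 1571 FPKM with vehicle, 23860 ± 1342 FPKM at 0.1 mg/kg and 22995 ± 543 FPKM at 1 mg/kg, and these values overlapped between the groups. The ratio of the large to the small sum was 1.41, 1.38 and 1.41 with vehicle, 1.52, 1.45 and 1.53 in the 0.1 mg/kg samples and 1.5, 1.56 and 1.54 in the 1 mg/kg samples, without overlap between digoxin and vehicle. Such sums are led by the few most abundant genes, and no test was run on them. FPKM totals were higher in digoxin samples (323986 to 339246) than in vehicle samples (303489 to 316244), and transcripts of the mitochondrial genome held 3.16 to 3.65% with vehicle, 4.91 to 6.43% in the 0.1 mg/kg samples and 3.53 to 7.48% in the 1 mg/kg samples. Their part in the lower share was not tested.

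At 0.1 mg/kg the members did not move as a block: 18 were higher, 13 were lower and 57 did not pass, at an adjusted p under 0.05 by limma over all 13687 tested genes. That is 35.2% of the members called, against 42.2% of all tested genes. By direction, 21.6% of all tested genes were higher and 20.7% lower. The median log2 fold change, on the log2(FPKM + 1) scale, was 0.01 for the members and 0.02 for all tested genes, and values of the 2 groups did not overlap for 45 of the 88 members, against 60.2% of all tested genes. The members that did not pass lay between -0.48 (Rpl17) and 0.64 (Rpl3l). Large subunit genes gave 11 higher and 9 lower calls of 53, and small subunit genes 7 higher and 4 lower of 35.

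At 1 mg/kg 12 members were higher, 20 were lower and 56 did not pass by limma. That is 36.4% called, against 45.9% of all tested genes, of which 20.7% were higher and 25.2% lower. The members' median was -0.07, that of all tested genes -0.04, and 51 of the 88 did not overlap with vehicle, against 58.3% of all tested genes. Members that did not pass lay between -0.37 (Rps7) and 1.23 (Rpl3l). Here the large subunit gave 8 higher and 10 lower calls, and the small subunit 4 higher and 10 lower. Among the members, 12 (13.6%) were called higher at both doses and 12 (13.6%) lower at both, beside 15.9% and 18.0% of all tested genes. Both comparisons use the same vehicle samples. The higher ones were Rpl22l1, Rpl24, Rpl26, Rpl28, Rpl35a, Rpl39, Rpl39l, Rplp2, Rps13, Rps15a, Rps21 and Rps27, and the lower ones included Rpl3, Rpl4, Rpl5, Rpl7l1, Rpl10a, Rpl23a, Rplp0, Rps4x, Rps6, Rps10 and Rps26.

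**Figure D2:**
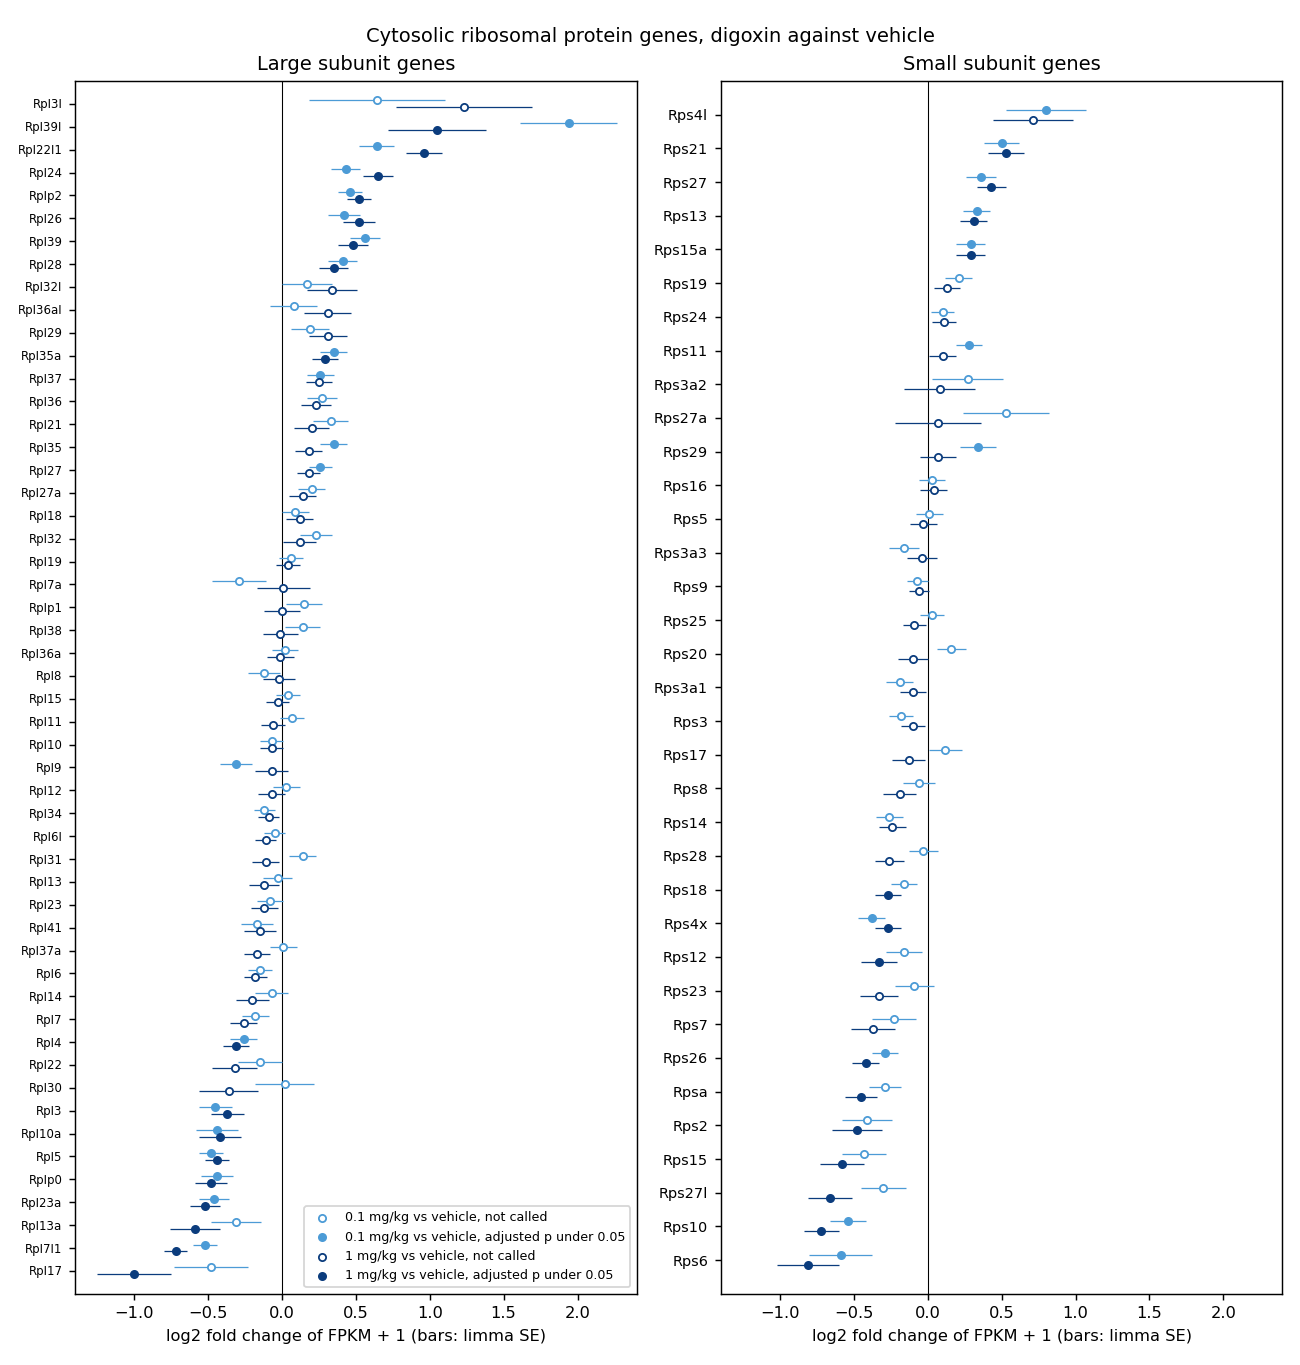
Log2 fold changes of FPKM + 1 with limma standard errors for large and small subunit genes, light blue for 0.1 mg/kg and dark blue for 1 mg/kg against vehicle, 3 samples per group. Filled points passed an adjusted p of 0.05. Both subunits spread to either side of 0, from Rpl17 at -1.0 (1 mg/kg) to Rpl39l at 1.94 (0.1 mg/kg).

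The balance of higher and lower calls depended on how samples were scaled. At 0.1 mg/kg, rescaling to TPM gave 10 higher and 23 lower members, quantile normalisation 7 and 27, rescaling by the summed FPKM of all other genes 7 and 25, and equal medians 13 and 11. Over these settings 7.95 to 14.8% of the members were higher and 12.5 to 30.7% lower, beside 16.2 to 21.0% and 22.9 to 30.2% of all tested genes. The same scalings at 1 mg/kg gave 11 and 29, 8 and 36, 8 and 33, and 13 and 14. That is 9.09 to 14.8% of the members higher and 15.9 to 40.9% lower, beside 16.5 to 22.2% and 24.2 to 33.3% of all tested genes. The median of all tested genes moved with them, to -0.09, -0.06, -0.10 and -0.02 at 0.1 mg/kg and to -0.12, -0.07, -0.14 and -0.03 at 1 mg/kg. The members' medians were then -0.10, -0.16, -0.13 and -0.02 at 0.1 mg/kg. The corresponding medians at 1 mg/kg were -0.15, -0.19, -0.19 and -0.06. All 4 scalings kept 7 of the 18 higher and 10 of the 13 lower calls at 0.1 mg/kg, and 7 of the 12 higher and 14 of the 20 lower calls at 1 mg/kg. Without both intermediate samples 0.1 mg/kg gave 19 higher and 25 lower members, beside 31.9% and 29.6% of all tested genes, and 1 mg/kg gave 14 and 26, beside 31.4% and 29.9%.

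Calls that held without each of the 9 samples in turn and under all 4 scalings were fewer. At 0.1 mg/kg these were 6 higher members (Rpl22l1, Rpl24, Rpl39, Rpl39l, Rplp2 and Rps21) and 6 lower ones (Rpl3, Rpl5, Rpl7l1, Rpl23a, Rps4x and Rps10). At 1 mg/kg they were 7 higher members (Rpl22l1, Rpl24, Rpl26, Rpl39, Rplp2, Rps21 and Rps27) and 10 lower ones (among them Rpl5, Rpl7l1, Rpl17, Rpl23a, Rplp0, Rps10, Rps26, Rps27l and Rpsa). The members kept at 0.1 mg/kg are 6.82% in either direction, beside 11.2% higher and 10.6% lower of all tested genes, and those kept at 1 mg/kg 7.95% and 11.4%, beside 12.1% and 15.1%. A further alternative removed a smooth trend in transcript length and GC content, fitted over the 11312 tested genes with a coding transcript. It ended 5 of the 6 higher calls kept at 0.1 mg/kg, leaving Rpl22l1 at 0.16 (limma adjusted p = 0.202), Rpl24 at 0.14 (0.215), Rpl39 at 0.24 (0.0644), Rplp2 at 0.07 (0.623) and Rps21 at 0.12 (0.446). Rpl39l stayed called at 1.59 (0.00691). The 6 lower calls kept at 0.1 mg/kg stayed called in that fit (limma adjusted p up to 0.00629, Rpl3). So did the 7 higher calls kept at 1 mg/kg (up to 0.0443, Rps27).

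Between the doses no member was called. At 1 mg/kg against 0.1 mg/kg, limma gave 0 of the 88 members, against 0.0146% of all tested genes (2 of 13687). At an unadjusted p under 0.05, 9 of the 88 members passed, beside 13.6% of all tested genes, and the smallest adjusted p among members was 0.28. No alternative fit called a member in this comparison. The largest estimates were Rpl39l at -0.89 ± 0.33 (SE), Rpl17 at -0.52 ± 0.25 and Rps27a at -0.47 ± 0.29 on the lower side, and Rpl3l at 0.58 ± 0.46, Rpl22l1 at 0.32 ± 0.12 and Rpl7a at 0.30 ± 0.18 on the higher side. Values of the doses did not overlap for 11 of the 88 members, against 17.0% of all tested genes.

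Within the P stalk the 3 genes went separate ways. Rplp0, which anchors the stalk to the large subunit, had 2550, 2290 and 2410 FPKM with vehicle, 1780, 1970 and 1610 FPKM at 0.1 mg/kg and 1820, 1690 and 1670 FPKM at 1 mg/kg. Every digoxin sample was below every vehicle sample, with log2 fold changes of -0.44 ± 0.11 (limma adjusted p = 0.0124) and -0.48 ± 0.11 (0.00739), and without sample 3 at 0.1 mg/kg the adjusted p at that dose was 0.0557. Rplp2, one of the acidic stalk proteins, had 202, 182 and 202 FPKM with vehicle, 254, 265 and 289 FPKM at 0.1 mg/kg and 282, 285 and 277 FPKM at 1 mg/kg. It was higher at both doses without overlap, by 0.46 ± 0.08 (adjusted p = 0.00339) and 0.52 ± 0.08 (0.00171). With the length and GC trend removed these were 0.07 (0.623) and 0.33 (0.0289), so the call at 0.1 mg/kg was lost. Its partner Rplp1 did not pass, at 0.15 ± 0.12 (0.353) and -0.00 ± 0.12 (0.999).

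Of the 2 proteins that form the 5S ribonucleoprotein particle with 5S rRNA and can bind Mdm2, only Rpl5 passed the test. Rpl5 had 422, 397 and 440 FPKM with vehicle, 311, 315 and 277 FPKM at 0.1 mg/kg and 313, 302 and 309 FPKM at 1 mg/kg. It fell by 0.48 ± 0.08 at 0.1 mg/kg (limma adjusted p = 0.00309) and by 0.44 ± 0.08 at 1 mg/kg (0.00333), with no overlap. Rpl11 had 230, 215 and 222 FPKM with vehicle, 215, 254 and 232 FPKM at 0.1 mg/kg and 222, 211 and 209 FPKM at 1 mg/kg, with adjusted p-values of 0.52 and 0.6. The difference between the 2 genes was not tested.

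Among other large subunit genes, Rpl3, whose protein lies beside the peptidyl transferase centre, had 642, 627 and 652 FPKM with vehicle, 459, 514 and 437 FPKM at 0.1 mg/kg and 568, 458 and 469 FPKM at 1 mg/kg. It was lower at both doses, by limma at -0.45 ± 0.11 (adjusted p = 0.0111) and -0.37 ± 0.11 (0.0214). Rpl23a, at the exit of the nascent chain tunnel, averaged 333 ± 14.4 FPKM with vehicle, 244 ± 29.7 FPKM at 0.1 mg/kg and 232 ± 6.22 FPKM at 1 mg/kg, and fell at both doses (adjusted p = 0.00691 and 0.00345). Rpl4, which lines that tunnel, was lower by 0.26 and 0.31 with adjusted p-values of 0.0457 and 0.022. Rpl39, a short protein of the same tunnel wall, went the other way. It had 139, 115 and 141 FPKM with vehicle, 184, 196 and 201 FPKM at 0.1 mg/kg and 174, 198 and 178 FPKM at 1 mg/kg, with log2 fold changes of 0.56 ± 0.10 (adjusted p = 0.00387) and 0.48 ± 0.10 (0.00582), which without the length and GC trend were 0.24 (0.0644) and 0.30 (0.0257). Rpl26, a target of UFMylation near the tunnel exit, averaged 505 ± 34.7 FPKM with vehicle, 673 ± 7.64 FPKM at 0.1 mg/kg and 728 ± 89.7 FPKM at 1 mg/kg, and passed at both doses (0.0149 and 0.00521). Its log2 fold change of 0.42 at 0.1 mg/kg was 0.08 (0.414) without that trend.

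Rps6, the substrate of the S6 kinases, gave the largest fall among small subunit genes. It had 969, 953 and 924 FPKM with vehicle, 515, 870 and 555 FPKM at 0.1 mg/kg and 677, 491 and 478 FPKM at 1 mg/kg. The intermediate samples were the highest of their dose groups at 870 and 677 FPKM, still below every vehicle sample. The log2 fold changes were -0.59 ± 0.21 (limma adjusted p = 0.0462) and -0.81 ± 0.21 (0.0136), and without both intermediate samples -0.83 and -0.97. The call at 0.1 mg/kg held without 2 of the 9 samples only (adjusted p up to 0.15, without sample 1 at that dose), and the one at 1 mg/kg without 8 of 9 (0.0503 without sample 3 at that dose).

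Rpsa, also known as the laminin receptor, had 1100, 997 and 1030 FPKM with vehicle, 783, 944 and 837 FPKM at 0.1 mg/kg and 858, 737 and 696 FPKM at 1 mg/kg. All digoxin samples were lower than all vehicle samples, but the estimate of -0.29 ± 0.11 at 0.1 mg/kg did not pass (limma adjusted p = 0.0631), whereas -0.45 ± 0.11 at 1 mg/kg did (0.0115). Rps15, at -0.43 (adjusted p = 0.0511) and -0.58 (0.0156), and Rps2, at -0.41 (0.0779) and -0.48 (0.0462), likewise passed at 1 mg/kg only. The difference between the doses was not called for any of the 3. Rps3, at the mRNA entry channel, and Rps19, mutated in Diamond-Blackfan anaemia in humans, passed at neither dose (adjusted p = 0.118 and 0.339 for Rps3, 0.082 and 0.246 for Rps19).

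On the higher side, Rps21 had 227, 170 and 232 FPKM with vehicle, 309, 275 and 304 FPKM at 0.1 mg/kg and 284, 320 and 300 FPKM at 1 mg/kg. It was higher by 0.50 ± 0.12 (limma adjusted p = 0.0135) and 0.53 ± 0.12 (0.00947), without overlap, and by 0.12 (0.446) and 0.34 (0.0401) with the length and GC trend removed. Rps13 passed at 0.33 (adjusted p = 0.0158) and 0.31 (0.0174), a call kept under 1 of the 4 scalings at 0.1 mg/kg and 2 at 1 mg/kg. Rps15a passed at 0.29 at either dose (0.0406 and 0.0388), kept under 0 of the 4 scalings and without 3 of the 9 samples at each dose. Rps27a, encoded as a fusion with ubiquitin, was among the most variable members, with 398, 295 and 285 FPKM with vehicle, 520, 402 and 486 FPKM at 0.1 mg/kg and 205, 492 and 380 FPKM at 1 mg/kg. Its estimates of 0.53 ± 0.29 and 0.07 ± 0.29 did not pass (adjusted p = 0.167 and 0.867), and the low value of 205 FPKM was in the intermediate sample at 1 mg/kg.

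Paralogues and their main genes are described as pairs, and the difference within a pair was not tested. In the pair of Rpl22l1 and Rpl22 the paralogue passed at both doses and the main gene at neither, whereas Rpl39l and Rpl39 were both called higher at both doses, and Rpl6l stayed near the same share of Rpl6 (23.7% with vehicle, 25.3% and 24.7% at the doses). Rpl22l1 encodes a paralogue of Rpl22, an RNA-binding protein of the large subunit. It had 23.0, 18.8 and 19.3 FPKM with vehicle, 34.3, 27.8 and 35 FPKM at 0.1 mg/kg and 36.7, 46.0 and 39.2 FPKM at 1 mg/kg. All digoxin samples lay above all vehicle samples, and Rpl22l1 was higher by 0.64 ± 0.12 (limma adjusted p = 0.00519) and 0.96 ± 0.12 (0.00099). With the length and GC trend removed these were 0.16 (0.202), where the call was lost, and 0.61 (0.00194). Rpl22 had 108, 99.0 and 106 FPKM with vehicle, 79.1, 116 and 90.0 FPKM at 0.1 mg/kg and 97.9, 75.8 and 76.9 FPKM at 1 mg/kg, and did not pass (-0.15 ± 0.15 and -0.32 ± 0.15, adjusted p = 0.43 and 0.102). Rpl22l1 was thus 21.3, 19.0 and 18.3% of Rpl22 with vehicle, 43.4, 24.1 and 38.9% in the 0.1 mg/kg samples and 37.5, 60.7 and 51.0% in the 1 mg/kg samples. With 3 samples per group an exact permutation test cannot give a two-sided p below 0.1, so these ratios are given without a test; no digoxin value overlapped the vehicle values.

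Rps27l, a p53-inducible paralogue of Rps27, went down while Rps27 went up. Rps27l had 148, 135 and 130 FPKM with vehicle, 92.6, 144 and 104 FPKM at 0.1 mg/kg and 96.8, 82.6 and 81.7 FPKM at 1 mg/kg. The fall passed at 1 mg/kg (-0.66 ± 0.15, limma adjusted p = 0.00973), and at 0.1 mg/kg the estimate of -0.30 ± 0.15 did not (0.15), where the intermediate sample held 144 FPKM. Rps27 had 262, 216 and 243 FPKM with vehicle, 313, 286 and 329 FPKM at 0.1 mg/kg and 306, 336 and 330 FPKM at 1 mg/kg, and rose by 0.36 ± 0.10 (0.0173) and 0.43 ± 0.10 (0.00778). At 0.1 mg/kg that call held under 2 of the 4 scalings, and the estimate turned to -0.04 (0.722) with the length and GC trend removed. As a share of Rps27, Rps27l stood at 56.2, 62.5 and 53.5% in vehicle samples, 29.6, 50.4 and 31.6% in those at 0.1 mg/kg and 31.7, 24.6 and 24.7% in those at 1 mg/kg, again without overlap between digoxin and vehicle.

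Rpl7l1, a nucleolar paralogue of Rpl7, had 47.6, 44.7 and 45.5 FPKM with vehicle, 28.3, 34.2 and 33.0 FPKM at 0.1 mg/kg and 27.1, 27.1 and 28.6 FPKM at 1 mg/kg. These values did not overlap, and the falls of -0.52 ± 0.08 (limma adjusted p = 0.00242) and -0.72 ± 0.08 (0.000668) had the smallest adjusted p of all members at each dose. Rpl7 had 636, 639 and 629 FPKM with vehicle, 512, 629 and 544 FPKM at 0.1 mg/kg and 561, 523 and 509 FPKM at 1 mg/kg, and did not pass (0.147 and 0.0507).

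Rpl39l, which in mice is best known from the testis, was nearly silent with vehicle, at 0, 0.0962 and 0.186 FPKM, or 0, 4 and 8 recovered reads. It reached 3.09, 6.03 and 1.58 FPKM at 0.1 mg/kg (110, 215 and 57 reads) and 1.2, 0.83 and 1.87 FPKM at 1 mg/kg (42, 28 and 63 reads). The rises of 1.94 ± 0.33 (limma adjusted p = 0.00311) and 1.05 ± 0.33 (0.0293) are the largest called among the members, and the log2(FPKM + 1) scale understates changes at such low levels. At 1 mg/kg the call held without 5 of the 9 samples (adjusted p up to 0.0974, without sample 3 at that dose), and it was lost at 0.84 (0.0658) with the length and GC trend removed. The summed level of 3 germ cell markers was 0.0897 to 0.339 FPKM with vehicle, 0.388 to 0.994 FPKM at 0.1 mg/kg and 0.146 to 0.354 FPKM at 1 mg/kg, with none of the 3 above the filter, and its part in the result was not tested.

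Rpl3l, the striated muscle paralogue of Rpl3, had 0.225, 0.0122 and 0.129 FPKM with vehicle, 0.852, 0.383 and 1.08 FPKM at 0.1 mg/kg and 0.202, 1.71 and 4.51 FPKM at 1 mg/kg. It did not pass (limma adjusted p = 0.282 and 0.0566). The sum of 9 skeletal muscle markers was 107, 35.2 and 32 FPKM with vehicle, 289, 157 and 331 FPKM at 0.1 mg/kg and 54.3, 413 and 1170 FPKM at 1 mg/kg, and 3 and 4 of the 8 tested markers were higher at 0.1 and 1 mg/kg. The highest Rpl3l value and the highest muscle sum were in the same sample, and the part of muscle tissue in this result was not tested. Rps4l, a paralogue of Rps4x, was higher at 0.1 mg/kg (0.80 ± 0.27, adjusted p = 0.0447) and not called at 1 mg/kg (0.71 ± 0.27, 0.062). Rpl6l, Rpl32l, Rpl36al, Rps3a2 and Rps3a3 passed at neither dose.

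**Figure D3:**
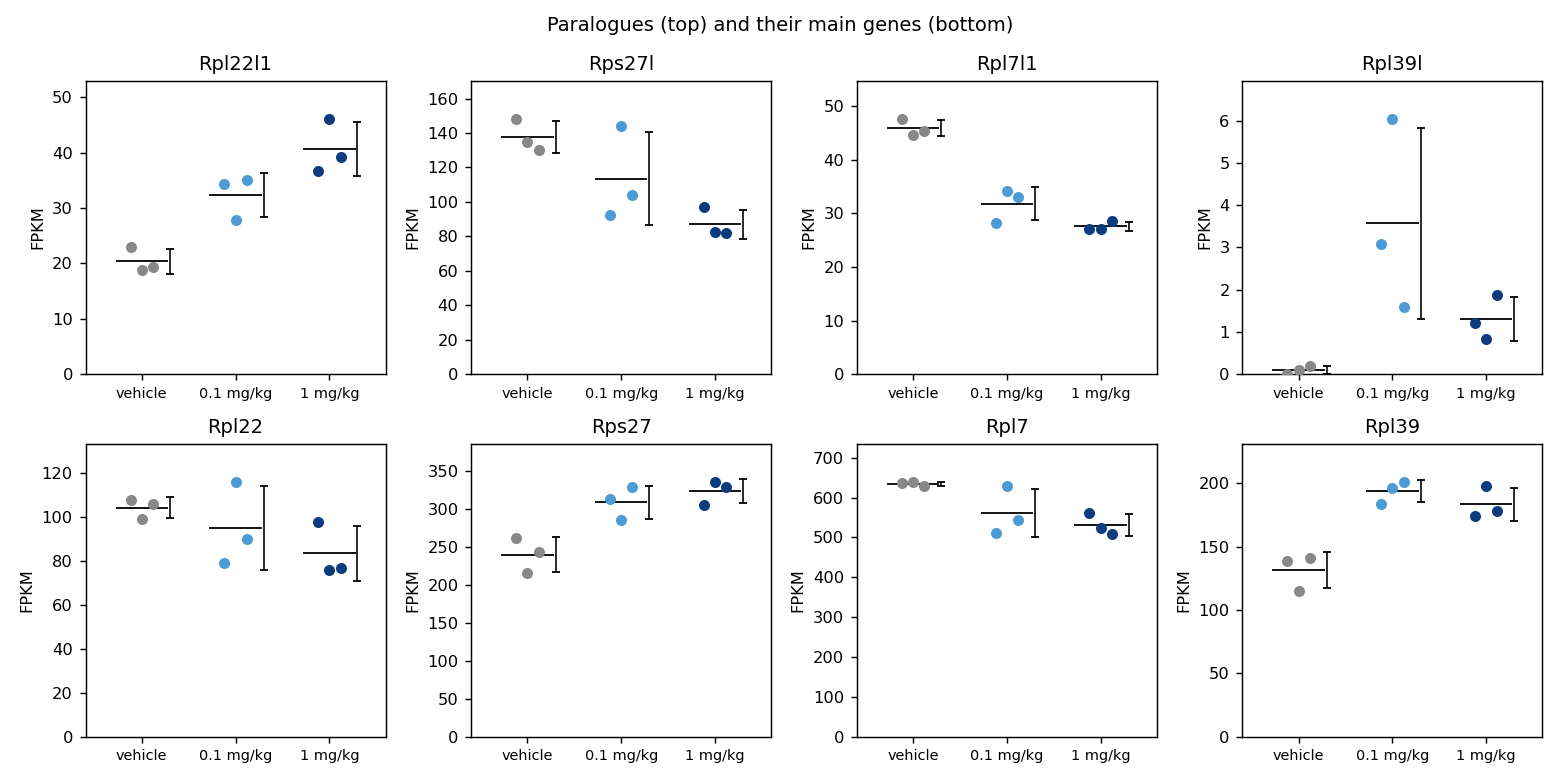
FPKM per sample of 4 paralogues (top) and their main genes (bottom), for vehicle, 0.1 mg/kg and 1 mg/kg. Points are samples, lines are means and error bars are SD (n = 3 per group). Rpl22l1 and Rpl39l were above the vehicle values in every digoxin sample, Rpl7l1 below, and Rps27l below them at 1 mg/kg.

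For some members, much of the summed FPKM was listed under pseudogenes, processed copies that can be nearly identical to the parent mRNA. How the authors' counting divided reads between parents and copies is unknown here and was not tested. The table held 253 ribosomal protein pseudogenes, and 57 members had at least 1 named after them. These copies held over 10% of the summed FPKM of parent and copies for 24 members and over 50% for 5, namely Rps10 (99.3%), Rpl21 (80.6%), Rps12 (73.8%), Rpl17 (66.9%) and Rpl30 (53.2%). Rps10 was listed at 6.40, 8.17 and 7.13 FPKM with vehicle, 3.93, 5.31 and 4.82 FPKM at 0.1 mg/kg and 4.21, 3.55 and 4.17 FPKM at 1 mg/kg, whereas Rps10-ps2 was listed at 883, 706 and 825 FPKM, 670, 798 and 725 FPKM, and 751, 670 and 700 FPKM in the same groups. Rps10 alone was called lower at both doses by limma (-0.54 ± 0.12, adjusted p = 0.00979, and -0.72 ± 0.12, 0.00257). With its pseudogenes added, neither difference passed (-0.13, adjusted p = 0.358, and -0.18, 0.205).

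Rpl17, another protein of the exit tunnel, gave the lowest estimate of all members. It had 546, 613 and 617 FPKM with vehicle, 345, 560 and 395 FPKM at 0.1 mg/kg and 364, 352 and 201 FPKM at 1 mg/kg, with -0.48 ± 0.25 (limma adjusted p = 0.145) and -1.0 ± 0.25 (0.0117). Rpl17-ps10 was listed at 342, 280 and 304 FPKM with vehicle, 581, 255 and 370 FPKM at 0.1 mg/kg and 465, 650 and 1090 FPKM at 1 mg/kg, and was highest in the sample in which Rpl17 was lowest. Sums with pseudogenes, here and for other members, add FPKM values each scaled by its own gene length, so they are not sums of reads. Added to its 9 pseudogenes, Rpl17 averaged 1280 ± 67.6 FPKM with vehicle, 1280 ± 74.6 FPKM at 0.1 mg/kg and 1470 ± 284 FPKM at 1 mg/kg, and the difference at 1 mg/kg turned to 0.19 (adjusted p = 0.283). The fall of Rpl17 is therefore uncertain.

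For Rpl30, the copy Rpl30-ps10 was listed at 150, 6.45 and 13.0 FPKM with vehicle, 167, 100 and 10.1 FPKM at 0.1 mg/kg and 158, 142 and 152 FPKM at 1 mg/kg, beside 87.3, 112 and 132 FPKM for Rpl30 itself with vehicle. Rps12 was called lower at 1 mg/kg (-0.33 ± 0.12, limma adjusted p = 0.0453) and was not called with its 21 pseudogenes added (-0.27, 0.0576). Over all members, adding pseudogenes left 18 higher and 11 lower at 0.1 mg/kg, with 12 higher and 17 lower at 1 mg/kg. In that fit 2952 of all 13687 tested genes were higher and 2827 lower at 0.1 mg/kg (42.2% called). At 1 mg/kg these were 2833 and 3440 (45.8%). Rpl24, which rose at both doses (0.43 ± 0.10, adjusted p = 0.00866, and 0.65 ± 0.10, 0.00153), rested on 59, 62 and 64 recovered reads with vehicle, 80, 84 and 97 reads at 0.1 mg/kg and 99, 108 and 104 reads at 1 mg/kg. Its mean stayed far under the members' median of 327 FPKM, and the part of the authors' counting in this was not tested.

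**Figure D4:**
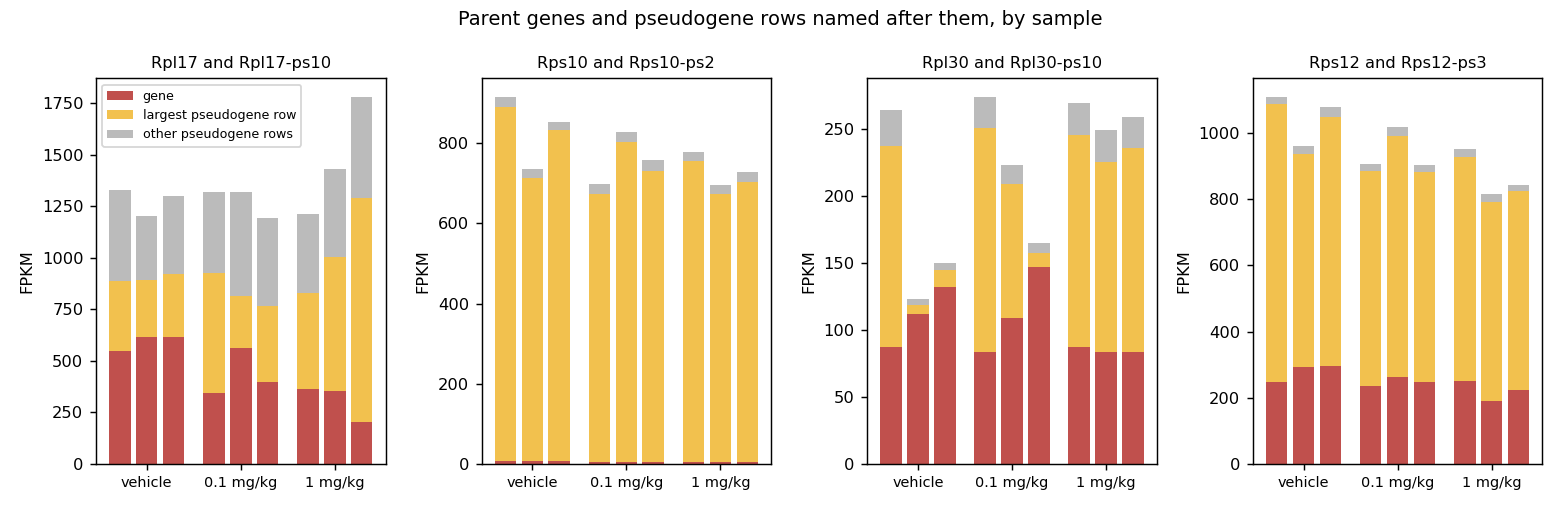
Stacked FPKM of Rpl17, Rps10, Rpl30 and Rps12 (red), their largest pseudogene (yellow) and their other pseudogenes (grey), with 1 bar per sample in the groups vehicle, 0.1 mg/kg and 1 mg/kg. Rps10 reads as a thin band under Rps10-ps2, and Rpl17 shrinks at 1 mg/kg while Rpl17-ps10 grows to 1090 FPKM in 1 sample.

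Direction went with coding length. Over the 77 canonical members, the log2 fold change at 0.1 mg/kg correlated with the log2 coding length (GENCODE) at Pearson r = -0.52 and Spearman rho = -0.59, and at 1 mg/kg at -0.39 and -0.43. These are descriptions across genes, which share the same 6 samples in each comparison. Over 11229 other tested genes r and rho were -0.16 and -0.17 at 0.1 mg/kg, and at 1 mg/kg they were -0.10 and -0.09. GC content gave 0.08 and 0.07 in the members at 0.1 mg/kg, and mean level -0.21 and -0.33. At a length of 450 nucleotides, chosen after the values were seen, the 36 shorter canonical genes gave 12 higher and 1 lower calls at 0.1 mg/kg, and the 41 longer ones 3 and 11. The shorter genes gave 8 and 3 at 1 mg/kg, and the longer ones 2 and 15. Shares of other genes in narrower length ranges stand in the next paragraph.

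The gap between both length classes was present in each digoxin sample. The median deviation from the vehicle mean in the shorter genes, less that in the longer ones, was 0.03, -0.04 and 0.03 on the log2 scale with vehicle, 0.28, 0.24 and 0.36 in the 0.1 mg/kg samples and 0.15, 0.26 and 0.18 in the 1 mg/kg samples. Since deviations were taken from the vehicle mean, the vehicle gaps lie near 0 by construction. The gaps restate, by sample, the fold changes seen before the cut was chosen, and are no separate support. The intermediate samples had gaps of 0.24 and 0.15, the smallest of their groups. Among other genes too, higher calls at 0.1 mg/kg were more frequent at short lengths. Below 300 nucleotides, 34.8% of 244 other genes were higher and 11.9% lower at 0.1 mg/kg, beside 6 higher and 0 lower of 11 members. Between 300 and 450 nucleotides, the higher share at this dose was 33.9% of 551 other genes and 27.6% of 29 members. The lower share was 7.99% of those other genes and 3.45% of those members. From 600 to 900 nucleotides, other genes were still more often higher (25.2% of 1612) than lower (19.2%), beside 0 higher and 5 lower of 20 members. At 1 mg/kg 26.2% of other genes were higher and 18.9% lower below 300 nucleotides, and 21.8% and 27.9% from 600 to 900. The members gave 4 higher and 1 lower, and 0 and 8. Between 300 and 450 nucleotides, 23.4% of other genes were then higher and 16.3% lower, beside 20.7% and 10.3% of members. The smooth trend in length and GC content was fitted on the length of the whole transcript, not on the coding length used above. Its removal was possible for 11312 tested genes with a coding transcript, 83 of them members. It left 1 higher and 40 lower members at 0.1 mg/kg (1.2% and 48.2%), beside 19.4% and 28.6% of all genes in that fit. The counts at 1 mg/kg were 7 higher and 33 lower (8.43% and 39.8%), beside 21.9% and 30.2%. Whether the relation to length differs between members and other genes was not tested.

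**Figure D5:**
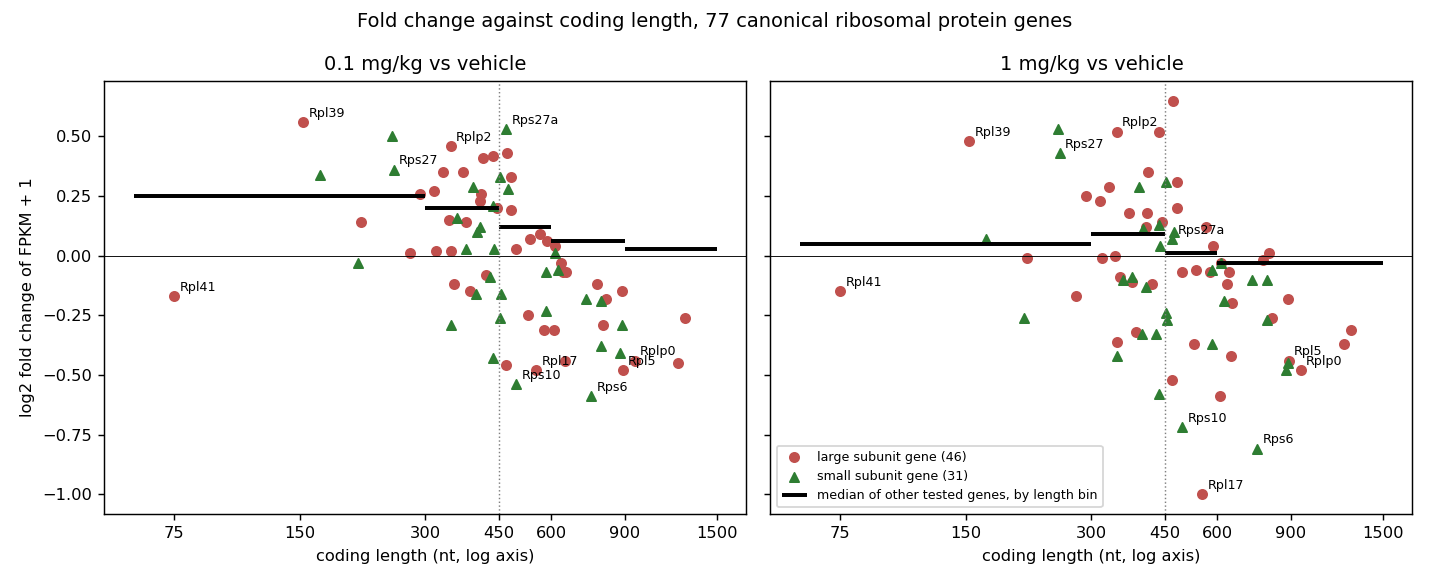
Log2 fold change of FPKM + 1 of the 77 canonical members against coding length on a log axis, at 0.1 mg/kg (left) and 1 mg/kg (right) against vehicle. Red circles are 46 large and green triangles 31 small subunit genes, black bars are medians of other tested genes in the same length range, and the dotted line is at 450 nucleotides. Short members such as Rpl39 and Rplp2 lie above 0, and long ones such as Rplp0 and Rps6 below it, while Rpl41, the shortest, lies below 0 in both panels (-0.17 and -0.15).

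Genes around the ribosome were described by lists. Fau encodes a ribosomal protein fused to a ubiquitin-like protein and falls outside the symbol rule. Fau averaged 580 ± 85.1 FPKM with vehicle, 733 ± 16 FPKM at 0.1 mg/kg and 837 ± 41.7 FPKM at 1 mg/kg (limma adjusted p = 0.0385 and 0.00637, the first lost under all 4 scalings and without both intermediate samples). Rack1, the small subunit scaffold, passed at neither dose (0.122 and 0.486).

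Of 19 translation factors and other genes whose mRNAs also carry a TOP tract, 0 were higher and 7 lower at 0.1 mg/kg, and 0 higher and 10 lower at 1 mg/kg. That is 36.8% and 52.6% called, beside 42.2% and 45.9% of all tested genes, of which 20.7% and 25.2% were lower. The medians of the 19 genes were -0.23 and -0.24, beside 0.01 and -0.07 for the ribosomal protein genes. The 4 scalings gave 7 to 12 lower at 0.1 mg/kg, 7 to 11 lower at 1 mg/kg, and 1 higher at 1 mg/kg with equal medians. Eef1a1, which delivers aminoacyl-tRNA, averaged 5300 ± 87.0 FPKM with vehicle, 3640 ± 395 FPKM at 0.1 mg/kg and 3640 ± 336 FPKM at 1 mg/kg (limma adjusted p = 0.00886 and 0.00775). Eef2, the translocase, fell by 0.73 ± 0.12 and 0.63 ± 0.12 (0.00308 and 0.00435). Tpt1 was estimated higher, at 0.25 ± 0.09 and 0.24 ± 0.09, and did not pass (0.0566 and 0.062).

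Among 13 regulators of translation, 2 were higher and 5 lower at 0.1 mg/kg, and 1 higher and 6 lower at 1 mg/kg. That is 53.8% called at either dose, beside 42.2% and 45.9% of all tested genes. Larp1, which binds TOP mRNAs, rose by 0.29 ± 0.07 and 0.40 ± 0.07 (limma adjusted p = 0.0104 and 0.00266). Eif4g1, the scaffold of the cap-binding complex, and Eif2ak4, the kinase that senses uncharged tRNA, fell at both doses, by 0.64 and 0.55 and by 0.64 and 0.71. Rps6kb1, a kinase of the Rps6 protein, was lower as well, at -0.40 ± 0.12 and -0.46 ± 0.12 (0.0253 and 0.0139). Myc, a transcription factor that drives ribosome production, averaged 218 ± 27.7 FPKM with vehicle, 96.7 ± 87.2 FPKM at 0.1 mg/kg and 107 ± 77.5 FPKM at 1 mg/kg, and did not pass (0.0722 and 0.123). Of 78 mitochondrial ribosomal protein genes, 10 were higher and 13 lower at 0.1 mg/kg, and 6 higher and 26 lower at 1 mg/kg, with medians of -0.03 and -0.14. That is 29.5% and 41.0% called, beside 42.2% and 45.9% of all tested genes, of which 20.7% and 25.2% were lower. The 4 scalings gave 14 to 27 lower at 0.1 mg/kg, and 22 to 35 lower at 1 mg/kg. Of all tested genes, 22.9 to 30.2% and 24.2 to 33.3% were then lower.

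Some marker sums of other cells and of growth separated from vehicle, and others overlapped it. Of 9 proliferation genes, 7 were lower at 0.1 mg/kg and 6 at 1 mg/kg, with none higher. That is 77.8% and 66.7%. Of all tested genes, 20.7% were lower and 21.6% higher at 0.1 mg/kg, and 25.2% lower and 20.7% higher at 1 mg/kg. The sum of the 9 genes was 422 to 431 FPKM with vehicle, 316 to 354 FPKM at 0.1 mg/kg and 301 to 358 FPKM at 1 mg/kg. The sum of 5 neutrophil markers was 49.3 to 177 FPKM with vehicle, 123 to 746 FPKM at 0.1 mg/kg and 485 to 1140 FPKM at 1 mg/kg, and that of 5 fibroblast markers 356 to 382 FPKM, 189 to 289 FPKM and 197 to 279 FPKM in the same order. Single fibroblast markers went both ways, with 2 higher and 2 lower at 0.1 mg/kg and 1 higher and 3 lower at 1 mg/kg. The sum of 7 T cell markers was 14.7 to 17.7 FPKM with vehicle, 32.4 to 55.4 FPKM at 0.1 mg/kg and 5.44 to 21.2 FPKM at 1 mg/kg. At 1 mg/kg this T cell range spans the vehicle range. The macrophage sum (2560 to 2860 FPKM with vehicle, 2580 to 3930 FPKM at 0.1 mg/kg, 1740 to 2880 FPKM at 1 mg/kg) overlapped between the groups and so did the endothelial sum (30.1 to 39.1 FPKM, 28.4 to 44.5 FPKM and 17.8 to 50.4 FPKM in the same order). The part of these cells in the values of the ribosomal protein genes was not tested. The genes whose log2 levels followed the members' mean most closely over the 9 samples were Ndufa8 (Pearson r = 0.956), Pfdn1 (0.932), Lsm12 (0.923), Rab26os (0.917) and Dohh (0.915), a ranking over 9 points that share libraries and scaling.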

How the data were processed

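The authors deposited 1 table of FPKM values (35321 genes, 9 samples). The submitters' processing notes list fastp 0.22.0, HISAT2 2.2.1 and the human build GRCh38, although the symbols are of mouse. The counter, its annotation and its handling of multi-mapped reads are unknown here. Depth and a whole length per gene were recovered from the spacing of the values (all members came out as whole reads within 0.03). Values were transformed to log2(FPKM + 1), 13687 genes with at least 1 FPKM in 3 of 9 samples were fitted with limma 3.58.1 (R 4.3.3, group means, mean-variance trend, two-sided), and p-values were Benjamini-Hochberg adjusted over all of them, at 0.05. The fit was tested on simulated data. Coding lengths came from GENCODE vM21, start sequences from RefSeq. Genes named are the 6 largest and 6 smallest fold changes per comparison, the most and least abundant members, paralogue pairs, members with known roles and the most alike genes; others were chosen after their values were seen. Members and lists were chosen with earlier results of these data known. Alternatives were other pseudocounts, filters, scalings, limma settings, a replicate block and each sample left out. Adding pseudogenes, removing a length and GC trend and leaving out both intermediate samples were chosen after seeing the data. Some genes are not reported by name here and are left out of the plot of all members, but they stay in the counts.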

Additional observations from a re-analysis of the deposited data

How the results depend on the processing

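Limits: 3 samples per group, bulk tumours and FPKM values without a stated counter limit every call. The unknown division of reads between parents and pseudogenes limits those of the genes named above. At 0.1 mg/kg, with 18 higher and 13 lower members and a median of 0.01, no expression filter gave 10 higher and 5 lower, quantile normalisation 7 and 27 (median -0.16), TPM 10 and 23 (-0.10), rescaling by genes outside the list 7 and 25 (-0.13), and removal of the length and GC trend 1 and 40 (-0.32); without both intermediate samples 25 were lower. At 1 mg/kg, with 12 higher and 20 lower and a median of -0.07, no filter gave 9 lower, quantile normalisation 36 (median -0.19), rescaling by genes outside the list 33 (-0.19), TPM a median of -0.15, and trend removal 7 higher and 33 lower (-0.23); between the doses, trend removal gave a median of 0.06. Without each sample in turn, 24.9 to 51.7% of all tested genes were called at 0.1 mg/kg (42.2% with all samples), and 30.2 to 53.9% at 1 mg/kg (45.9%). No filter gave 14.1% and 16.1% of all genes, and a replicate block 36.3% and 40.5% of all tested genes. The member counts without each sample in turn were 6 to 20 higher and 6 to 20 lower at 0.1 mg/kg, and 7 to 13 higher and 10 to 25 lower at 1 mg/kg. Counts moved by over 1.5 times without vehicle sample 2 (6 higher at 0.1 mg/kg, 7 higher at 1 mg/kg), vehicle sample 3 (9 higher at 0.1 mg/kg), 0.1 mg/kg sample 3 (7 higher and 6 lower at that dose), 0.1 mg/kg sample 2 (20 lower at that dose), 0.1 mg/kg sample 1 or 1 mg/kg sample 3 (8 lower at 0.1 mg/kg), any vehicle sample (7 lower at 0.1 mg/kg, 11 to 13 at 1 mg/kg) and 1 mg/kg samples 2 or 3 (11 and 10 lower at that dose). Deviations of same-numbered samples correlated at 0.193, 0.132 and 0.0908 for 0.1 mg/kg with vehicle, where each sample correlated best with its own number, at 0.00057, -0.0587 and -0.00619 for 1 mg/kg with vehicle, and at -0.244, -0.441 and 0.279 between the doses. No comparison had every pair over 0.1, so the numbers were not taken to pair samples; a replicate block gave 13 higher and 8 lower members at 0.1 mg/kg, with 10 higher and 14 lower at 1 mg/kg. Of the alternative values for single named genes, 871 kept their direction and side of the threshold, 105 lost the threshold and 2 turned: Rps27 at 0.1 mg/kg to -0.04 with the trend removed and Rpl17 at 1 mg/kg to 0.19 with pseudogenes added. For the other changes the cause was not tested.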
